A study of Mus musculus with 9 samples.

Results

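Genes for the proteins of the cytosolic and the mitochondrial ribosome were followed in a mouse macrophage line, RAW264.7, whose cells become osteoclast-like under RANKL, the cytokine that drives osteoclast formation. Membership was set by a rule on the gene symbol that uses no measured value. Of the 23282 gene rows in each library, 76 carry the symbol of a cytosolic ribosomal protein (Rps and Rpl with a number, Rpsa and the stalk proteins Rplp0, Rplp1 and Rplp2) and 77 carry that of a mitochondrial one (Mrps and Mrpl with a number), 153 in all. No member had more than 1 row, and all 153 had enough reads to enter every test.

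The 3 groups had 3 libraries each: RANKL alone at 50 ng/mL (the negative control), heat-killed Propionibacterium freudenreichii MJ2 at 10000000 cells/mL, and the surface proteins of that bacterium at 10 µg/mL. Per the study's methods the cells given surface proteins also received RANKL. Treatment lasted 4 days, all cells came from 1 line (labelled BALB/c and passage 30), and the treatment text of the labels names RANKL for all libraries together, without saying library by library that the cells given MJ2 received it too. It is not stated whether the 3 libraries of a group came from separate cultures, so p-values measure the spread between these libraries, which may be technical. Libraries were made with QuantSeq, which sequences only the last part of an mRNA, so a value does not grow with transcript length and levels of different genes can be set side by side.

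Each value is log2(adjusted reads + 1), as deposited, where adjusted reads are reads after the authors' scaling. Adjusted reads summed to between 5930926 and 6503682 per library (median 6195319), of which the ribosomal RNA gene Rn45s held 8.91% to 12.4%. The labelled cell type was checked on its markers: 9 macrophage genes were tested and their summed adjusted reads lay between 19148 and 26291 per library, while 10 defining genes of other cell types together held 5 to 55. Of these 10, 5 were listed at 0 in all 9 libraries (Cd3e, Ms4a1, Krt18 and Cdh5 among them), the others had a few reads, and the 1 with enough for a test did not pass in any comparison. In bulk RNA, fewer cells of a type and less RNA per cell cannot be told apart.

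Cytosolic ribosomes translate nuclear-encoded mRNA. Their protein genes are among the most highly transcribed of a growing cell, and many of their mRNAs begin with a run of pyrimidines, the 5′ terminal oligopyrimidine (TOP) motif, through which mTOR signalling and the protein Larp1 control their translation and stability together. Mitochondrial ribosomes are built from proteins that are also encoded in the nucleus and imported, and they make the few respiratory chain subunits encoded by mitochondrial DNA. Osteoclasts are known for a high content of mitochondria.

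The start sites of some members are shown first because the letters at the start of the mRNA are the best known feature that these genes share. A tract was counted where a C within 5 bases of the annotated start was followed by at least 4 further pyrimidines on the sense strand. RefSeq promoters on GRCm38.p6 were matched for 56 of the 76 cytosolic and 68 of the 77 mitochondrial members. Such a tract was found in 26 of 56 cytosolic promoters (46.4%), in 15 of 68 mitochondrial ones (22.1%) and in 18.5% of all 27025 promoters in the table. The following windows run from 10 bases before to 20 bases after the start, and capitals mark the tract. Rps6 (chr4:86857348-86857377, minus strand), Rpl13a (chr7:45128726-45128755, minus strand) and Rps2 (chr17:24720053-24720082, plus strand) have one. Rpl10 (chrX:74270806-74270835, plus strand) and Rplp0 (chr5:115559457-115559486, plus strand) are shown because no tract was found in theirs. Mrpl12 (chr11:120484627-120484656, plus strand) is a mitochondrial member with one, whose pyrimidines begin before the bases searched, so that the capitals mark only its end.
Rps6: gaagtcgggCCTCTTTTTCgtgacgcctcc
Rpl13a: cctgcgacaagaCCTCCTCCTTTCCCaggc
Rps2: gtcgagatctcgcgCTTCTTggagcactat
Rpl10: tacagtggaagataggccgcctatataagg
Rplp0: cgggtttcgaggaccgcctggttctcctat
Mrpl12: gcctcCTCCCggatagagcgtcgcttccgc

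A tract was only looked for at the start that RefSeq lists, and for genes such as Rps2 the start in GENCODE M21 lies elsewhere (24718116 on chromosome 17). Further motifs were searched on both strands from 250 bases before to 50 after the start. The letters CCGGAAG, bound by ETS factors such as Gabpa, were in 22 of 56 cytosolic promoters (39.3%) and 24 of 68 mitochondrial ones (35.3%), against 9.12% of all promoters. The letters GCGCATGC, bound by Nrf1, a regulator of nuclear genes for mitochondrial proteins, were in 3.57%, 11.8% and 2.8% in the same order. The letters AAGATGGC, bound by Yy1, were in 7.14%, 17.6% and 2.88%. An E-box (CACGTG, the site of MYC and MAX) was in 8.93%, 7.35% and 7.24%, and TATAAA was in 8.93%, 5.88% and 14.2%. Among mitochondrial members, 8 of 19 promoters of genes that were lower with surface proteins held the ETS letters (42.1%), and so did 16 of 49 others (32.7%). Over all matched mitochondrial members, the median log2 fold change of surface proteins against RANKL alone was -0.18 in the 24 with these letters. In the 44 without them it was -0.32. A link between the letters and the change was not tested. The windows below show the ETS letters in capitals in Mrpl18 (chr17:12916312-12916341, minus strand), Mrpl34 (chr8:71464878-71464907, plus strand) and Mrpl51 (chr6:125192099-125192128, plus strand). These genes are 3 of those that differed most between surface proteins and heat-killed MJ2. The letters were not found in Mrps6, Mrpl12 and Mrpl42, which were also much lower with surface proteins. For Rpl37a (chr1:72711258-72711287, plus strand) and Rpl5 (chr5:107900538-107900567, plus strand), the cytosolic members with the Nrf1 letters, capitals mark a match, which in Rpl37a reads on the other strand and overlaps the same letters on the strand shown.
Mrpl18: actgaaaacgCCGGAAGtagggggctgcgg
Mrpl34: aactacagctcCCGGAAGgccccgcggcaa
Mrpl51: caggggctaaaCCGGAAGtatttgactgga
Rpl37a: tctaaaaccgcGCATGCGCattgcgtccct
Rpl5: tgctacatactGCGCATGCgtacgtgactc

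The members differed widely in level. Averaged over the 9 libraries, cytosolic members ran from a log2 value of 8.26 for Rpl21 to 14.91 for the stalk protein Rplp1, with a median of 11.92, and 69 of the 76 were among the 1000 most abundant rows. Next to Rplp1, the highest were Rps20 at 13.94 and Rps14 at 13.92, and next to Rpl21 the lowest were Rpl29 at 9.04 and Rps2 at 9.37. Mitochondrial members ran from 5.26 for Mrpl21 to 10.53 for Mrps6, with a median of 8.52, and 3 of the 77 were among the 1000 most abundant rows. Mrpl52 at 10.43 and Mrpl17 at 10.16 followed Mrps6, and next to Mrpl21 the lowest were Mrps11 at 6.74 and Mrps36 at 6.87. Mrps36 is now known as a subunit of the α-ketoglutarate dehydrogenase complex and not of the ribosome, although its symbol puts it here.

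The 2 ribosomes took different shares of the reads under the 2 treatments. Cytosolic members held 7.43%, 8.06% and 7.24% of the adjusted reads in the 3 libraries with RANKL alone, 6.26%, 6.09% and 6.05% with heat-killed MJ2, and 6.84%, 6.83% and 7.03% with surface proteins. The 3 groups did not overlap: the libraries with RANKL alone were highest, those with surface proteins in the middle and those with heat-killed MJ2 lowest. The group means were 7.58% ± 0.43 (SD, n = 3), 6.13% ± 0.11 (SD, n = 3) and 6.90% ± 0.12 (SD, n = 3). Mitochondrial members held 0.630%, 0.571% and 0.630% with RANKL alone, 0.639%, 0.533% and 0.626% with heat-killed MJ2, and 0.452%, 0.423% and 0.437% with surface proteins. Here the libraries with surface proteins were lowest and the other two groups overlapped. Their means were 0.611% ± 0.034 (SD, n = 3), 0.599% ± 0.058 (SD, n = 3) and 0.437% ± 0.015 (SD, n = 3). Relative to RANKL alone, the cytosolic share was 19.1% smaller with heat-killed MJ2 and 8.91% smaller with surface proteins, and the mitochondrial share was 1.86% and 28.4% smaller.

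**Figure D1:**
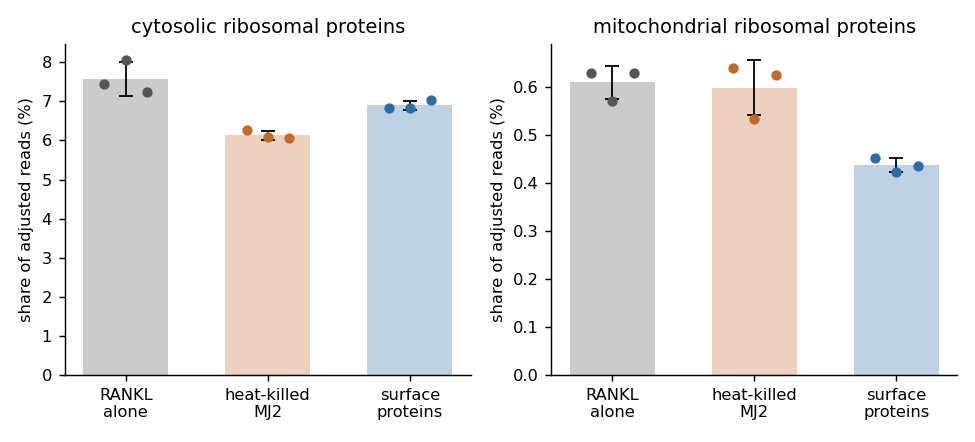
Share of all adjusted reads (%) held by the 76 cytosolic (left) and 77 mitochondrial (right) ribosomal protein genes. Points are the 3 libraries of each group, bars their mean and whiskers 1 SD. The cytosolic share is lowest with heat-killed MJ2 (6.05% to 6.26%) and the mitochondrial share lowest with surface proteins (0.423% to 0.452%).

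Single genes were tested between groups with limma, on the log2 values of the 6 libraries concerned. The Benjamini-Hochberg adjustment ran over every gene tested, and a member is said to pass below an adjusted p of 0.05. With 3 libraries against 3, no exact permutation test of a single gene can go below p = 0.1. The comparisons share libraries with each other, so their results are given side by side and not as separate evidence.

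With heat-killed MJ2, the cytosolic members had small differences of 1 sign, none of which passed the test by itself. The log2 fold change against RANKL alone was below 0 for all 76 members, with a median of -0.33 (20.2% below RANKL alone) beside a median of 0.00 over the 10814 genes tested. It ran from -0.56 for Rpl23a to -0.02 for Rps2, with an interquartile range from -0.40 to -0.27. The SD over members was 0.11, smaller than the median standard error of a single member (0.13), whereas the log2 fold changes of the 1064 tested genes with a mean log2 value of at least 10 had an SD of 0.58. Small subunit genes had a median of -0.33 (30 members) and large subunit genes of -0.32 (46 members). For 71 of 76 members (93.4%) all 3 libraries with heat-killed MJ2 lay below all 3 with RANKL alone, as they did for 14.7% of all genes tested and 28.1% of the 1064 abundant ones. The groups overlapped for Rpl41, Rpl38, Rps2, Rpl11 and Rpl9.

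By limma's test 0 of 76 cytosolic members passed in this comparison, with a lowest adjusted p of 0.059, where 1.84% of all genes were lower and 4.04% higher. An unadjusted p under 0.05 was reached by 40 members, all with lower values under heat-killed MJ2, beside 10.6% of all genes with lower and 12.0% with higher values. The call depended on how the spread was estimated. When limma modelled the spread by expression level and made it robust to outlying genes, 45 of 76 members (59.2%) were lower and 0 higher, beside 5.69% lower and 7.47% higher among all genes and 16.7% lower among the abundant ones. A fit that took the spread from all 9 libraries gave 7 lower (9.21%, all genes 2.66%) and 0 higher (all genes 5.75%). The median stayed between -0.36 and -0.27 under all 16 other settings tried. In the 15 of them that kept all members, 75 or 76 were below 0.

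The members with the lowest and highest log2 fold changes show the range. Rpl23a, a large subunit protein near the exit of the peptide tunnel, had log2 values of 11.11, 11.14 and 10.96 with RANKL alone and 10.48, 10.57 and 10.47 with heat-killed MJ2, a log2 fold change of -0.56 (standard error 0.13, limma adjusted p = 0.059). Rpl37a, a zinc-binding large subunit protein, had 11.55, 11.65 and 11.56 against 11.08, 11.09 and 11.00, a log2 fold change of -0.53 (standard error 0.12, limma adjusted p = 0.059). Rpl3, which lies at the peptidyl transferase centre, had 11.12, 11.23 and 11.03 against 10.56, 10.72 and 10.52, a log2 fold change of -0.53 (standard error 0.13, limma adjusted p = 0.080). In these 3 genes the groups did not overlap. At the other end, Rps2 had 9.39, 9.55 and 9.31 with RANKL alone and 9.32, 9.54 and 9.34 with heat-killed MJ2, and the groups overlapped. Its log2 fold change of -0.02 had a 95% interval from -0.36 to 0.32. Rpl7a had a log2 fold change of -0.12 (95% interval -0.43 to 0.20) and Rpl38, known for its role in the translation of Hox mRNAs, -0.13 (95% interval -0.49 to 0.22).

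Members with known roles beyond the building of the ribosome lay inside this range. Rps6, the substrate of S6 kinase, had 12.05, 11.93 and 11.90 with RANKL alone, 11.64, 11.66 and 11.47 with heat-killed MJ2, and 11.89, 11.95 and 11.85 with surface proteins, so only the libraries with heat-killed MJ2 stood apart from those with RANKL alone. Rpl13a, which also silences inflammatory mRNAs in interferon-treated myeloid cells, had 12.73, 12.66 and 12.64, then 12.34, 12.29 and 12.20, then 12.46, 12.49 and 12.50, and here the surface protein libraries lay between the other two groups. Rpl5, which with Rpl11 binds Mdm2 when ribosome assembly is disturbed, had 13.13, 13.06 and 12.99, then 12.55, 12.65 and 12.58, then 12.89, 13.04 and 12.89. The log2 fold change with heat-killed MJ2 was -0.14 (95% interval -0.48 to 0.20) for Rpl11 and -0.47 (95% interval -0.76 to -0.17) for Rpl5. The difference between these partners was not tested. The stalk proteins, which recruit elongation factors, had log2 fold changes of -0.32 (Rplp0), -0.28 (Rplp1) and -0.34 (Rplp2). Rps19, the gene most often mutated in Diamond-Blackfan anaemia, had -0.42, Rps3, also a partner of NF-κB, -0.27, Rpl22, needed for T cell development, -0.29, and Rpsa, also known as a laminin receptor, -0.19. None of these passed the test.

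**Figure D2:**
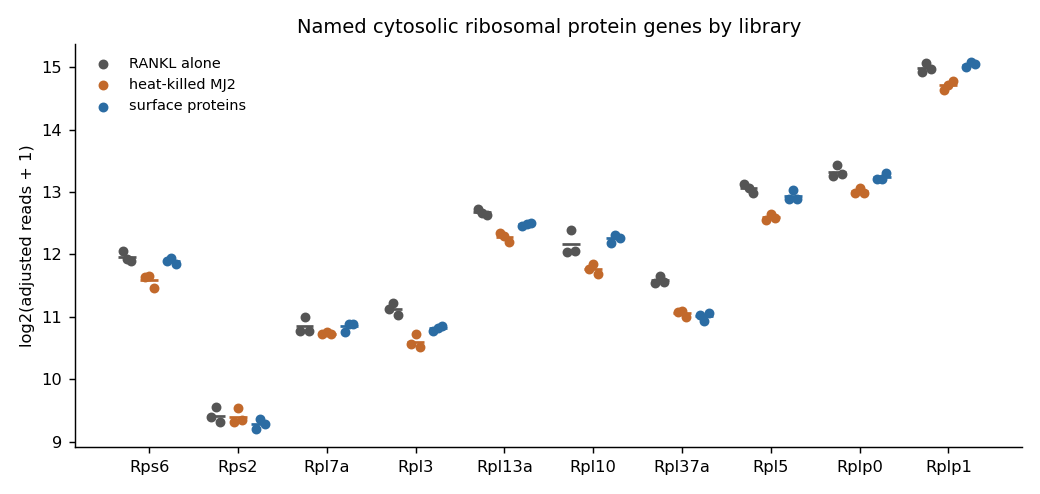
log2(adjusted reads + 1) of 10 cytosolic ribosomal protein genes in each library. Points are libraries, coloured by group, and short lines are group means. For Rpl3, Rpl5, Rpl13a and Rpl37a the heat-killed MJ2 libraries lie below all RANKL alone libraries, while those of Rps2 overlap.

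With surface proteins the cytosolic members stayed closer to RANKL alone. The median log2 fold change was -0.08 (all genes -0.01), 61 of 76 members were below 0 and 15 above, and the range ran from -0.58 for Rpl37a to 0.14 for Rpl12. Without RANKL alone replicate 2 the median was -0.04, with 45 members below 0 and 31 above, and with equal library totals it was -0.13, with 68 below and 8 above. Rpl37a alone passed the test: its log2 values were 11.03, 10.93 and 11.06 with surface proteins, all below the 3 with RANKL alone, and the log2 fold change was -0.58 (standard error 0.13, limma adjusted p = 0.020). This is 1.32% of the members beside 13.2% lower and 15.9% higher among all genes. Without any one of the 3 RANKL alone libraries, or without surface protein replicate 2 or 3, Rpl37a no longer passed, with adjusted p between 0.044 and 0.063 over the 6 fits that leave out a library. The groups did not overlap for 19 of 76 members with lower values (all genes 23.7%) and for Rpl12 with higher ones (1.32%, all genes 24.7%). The next largest differences were -0.35 in Rpl23a (limma adjusted p = 0.089) and -0.34 in Rps15 (limma adjusted p = 0.13), and the highest after Rpl12 were 0.10 in Rpsa and 0.09 in Rpl10. With the spread modelled by level, 7 members were lower (9.21%, all genes 17.5%) and 0 higher (all genes 19.2%), so the share of members was below that of all genes.

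Set directly against heat-killed MJ2, the libraries with surface proteins had higher cytosolic values. The median log2 fold change was 0.24 (all genes 0.03), 69 of 76 members were above 0, and for 58 members (76.3%) all surface protein libraries lay above all heat-killed MJ2 libraries, beside 22.2% of all genes and 33.3% of the abundant ones. By limma 1 member was higher (1.32%, all genes 9.21%) and 0 lower (all genes 8.65%). An unadjusted p under 0.05 was reached by 17 of 76, all with higher values, where 18.6% of all genes reached it with higher and 16.6% with lower values. With the spread modelled by level 27 were higher (35.5%, all genes 14.8%, abundant genes 24.1%) and 0 lower (all genes 13.6%). The member that passed was Rpl10, which completes the large subunit late in assembly. It had 11.77, 11.84 and 11.68 with heat-killed MJ2 and 12.19, 12.32 and 12.26 under the surface proteins, a difference of 0.49 on the log2 scale (standard error 0.13, limma adjusted p = 0.045). It no longer passed when any of the 6 libraries was left out, with adjusted p between 0.064 and 0.14, and its whole 3′ end is shared with transcripts of 10 other genes. Rpl30 (0.49, limma adjusted p = 0.052) and Rps15a (0.46, limma adjusted p = 0.086) had similar differences. At the low end were Rpl11 at -0.15, Rps2 at -0.11 and Rpl7 at -0.09, with groups that overlapped.

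Ribosomal protein genes have many processed copies in the genome, and how reads that match several places were counted is not stated. In GENCODE M21, the last 300 bases of 32 cytosolic and 72 mitochondrial members held no run of 75 bases (the read length) that also occurs in a transcript of another gene. The other 44 cytosolic and 5 mitochondrial members shared some, and Rpl7a shared runs with 30 other genes. Among the members with the smallest changes under heat-killed MJ2, Rps2 shared 64.6% of its runs, Rpl7a 77.4% and Rpl38 61.5%. Among those with the largest, Rpl23a shared 78.8%, Rpl3 73.9% and Rpl37a 0%. With heat-killed MJ2 the median log2 fold change was -0.34 in the 32 cytosolic members with no shared run and -0.32 in the other 44. It was -0.32 both in the 26 members with a pyrimidine tract and in the 30 matched ones without. The 15 mitochondrial members with a tract had a median of -0.47 with surface proteins against RANKL alone and the 53 without one -0.21. Other splits of the same members went the other way: -0.20 with and -0.30 without the Nrf1 letters, and -0.24 with and -0.28 without the Yy1 letters. None of these splits was tested. Of 9 copies listed on rows of their own, 3 had a higher level than the gene they derive from: Rplp2-ps1 had a mean log2 value of 14.38 beside 13.28 for Rplp2, Rpl37rt 13.92 beside 12.58 for Rpl37, and Rps27rt 11.23 beside 10.33 for Rps27. With heat-killed MJ2 the log2 fold changes of copy and gene were -0.33 and -0.34 for Rplp2-ps1 and Rplp2, and -0.45 and -0.50 for Rpl37rt and Rpl37. Over the 9 copies it ran from -0.46 to -0.24. The copies of Rps15a differed more from their gene: between the treatments Rps15a-ps4 had -0.03 and Rps15a-ps6 0.27, beside 0.46 for Rps15a, and with heat-killed MJ2 they had -0.28 and -0.37 beside -0.44. Levels of members with a copy are therefore uncertain, since reads may have been split between the rows.

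**Figure D3:**
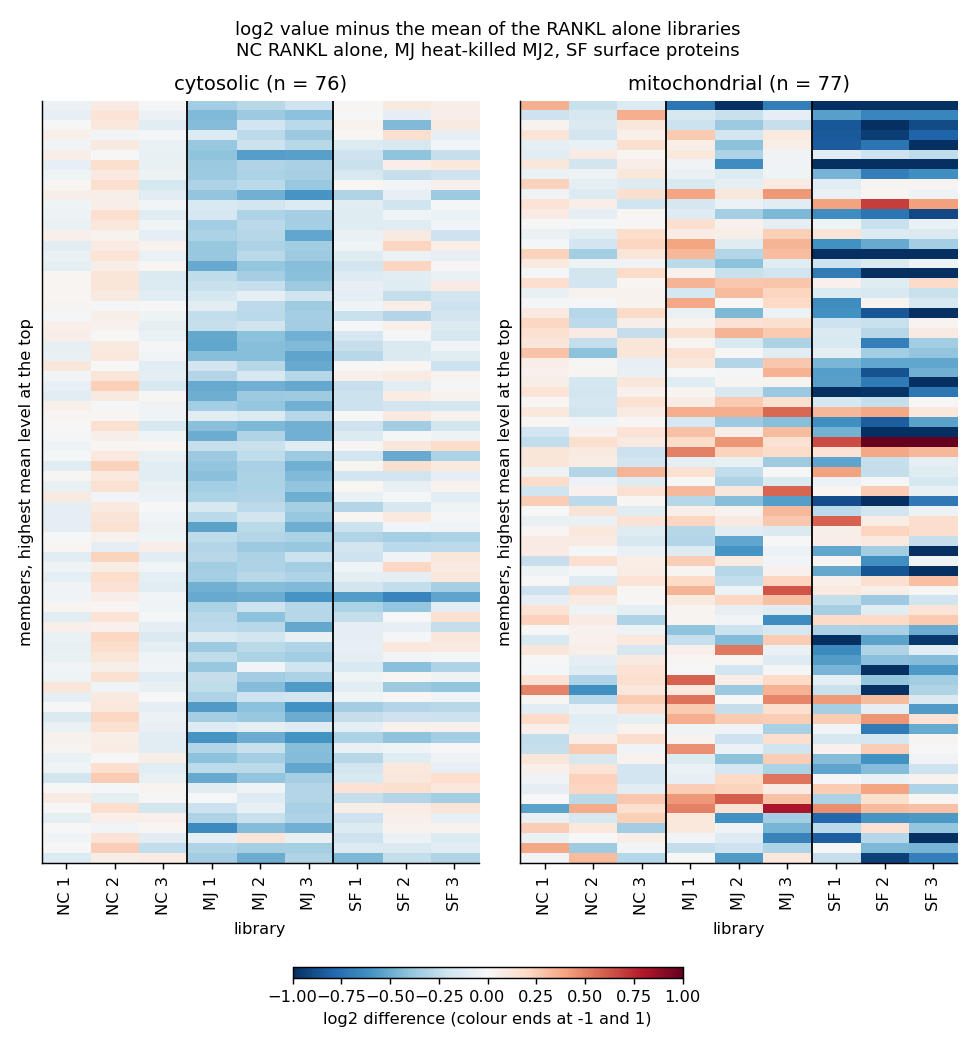
Difference of each member's log2 value from its mean in the 3 RANKL alone libraries, by library (columns) and member (rows, highest mean level at the top), for 76 cytosolic (left) and 77 mitochondrial (right) genes. The colour scale ends at -1 and 1. The 3 heat-killed MJ2 columns are blue over nearly the whole cytosolic panel (75, 75 and 76 of 76 members below 0), and the surface protein columns hold the darkest blue rows of the mitochondrial panel.

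Among the mitochondrial members the differences that passed were with surface proteins. Against RANKL alone, 21 of 77 members were lower with surface proteins (27.3%, all genes 13.2%), 1 was higher (1.30%, all genes 15.9%) and 55 did not pass. The median log2 fold change over the 77 was -0.28 (all genes -0.01) and the range ran from -1.67 to 1.01, with an SD over members of 0.46 (cytosolic members 0.13). At a change of at least 2-fold as well, 5 were lower (all genes 7.32%) and 1 was higher (all genes 10.2%). The groups lay apart for 32 members with lower values (41.6%, all genes 23.7%) and 4 with higher ones (5.19%, all genes 24.7%). Of the 21, 13 belong to the large subunit (48 members) and 8 to the small one (29 members). The 22 members that passed had a median mean level of 8.81 and the other 55 one of 8.26. Without RANKL alone replicate 1 or 3, or without surface protein replicate 2, 11 members passed, without surface protein replicate 3 12, and without RANKL alone replicate 2 or surface protein replicate 1 15 and 19. In these 6 fits 13.0% to 23.4% of the members and 7.60% to 11.9% of all genes were lower.

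Mrps6, a small subunit protein, had the largest decrease, and it was also the mitochondrial member with the lowest log2 fold change under heat-killed MJ2. Its log2 values were 11.73, 11.15 and 11.24 with RANKL alone, 10.65, 10.19 and 10.68 with heat-killed MJ2, and 9.83, 9.44 and 9.84 with surface proteins, and the 3 groups did not overlap. The log2 fold change was -1.67 with surface proteins (standard error 0.21, limma adjusted p = 0.0034, 3.19-fold lower) and -0.87 with heat-killed MJ2 (standard error 0.22, limma adjusted p = 0.081).

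Mrpl12, a large subunit protein that also binds the mitochondrial RNA polymerase, had 10.42, 10.12 and 10.37 with RANKL alone and 9.10, 8.85 and 9.05 under the surface proteins, which is a difference of -1.30 on the log2 scale (standard error 0.15, limma adjusted p = 0.0027). Its libraries with heat-killed MJ2, at 10.27, 9.68 and 10.27, overlapped those with RANKL alone and lay above those with surface proteins. Mrpl18, of a family that binds ribosomal RNA, had 9.81, 9.23 and 9.70, then 9.91, 9.29 and 9.89 with heat-killed MJ2, then 8.16, 8.24 and 8.45 under the surface proteins, a difference of -1.29 on the log2 scale with the last (standard error 0.20, limma adjusted p = 0.0062). Both genes passed in all 6 fits that left out a library.

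Mrpl42 and Mrpl51, large subunit proteins by their symbols, completed the members that were at least 2-fold lower. Mrpl42 had 8.68, 8.92 and 9.02 with RANKL alone and 8.40, 7.66 and 7.41 with surface proteins, where replicate 1 was nearer to the controls than the other two libraries. Its log2 fold change was -1.05 (standard error 0.28, limma adjusted p = 0.035), and 1 of 6 fits that left out a library still passed it. Mrpl51 had 9.54, 9.37 and 9.74 against 8.85, 8.34 and 8.43, a log2 fold change of -1.01 (standard error 0.19, limma adjusted p = 0.013). The other 16 that were lower were Mrpl17, Mrps35, Mrpl37, Mrps21, Mrps24, Mrpl34, Mrpl41, Mrpl50, Mrps26, Mrpl43, Mrpl36, Mrpl15, Mrps2, Mrps25, Mrpl10 and Mrps33, in order of size from -0.94 in Mrpl17.

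Mrpl19 was the exception among the members that passed. It had 7.90, 8.31 and 8.24 with RANKL alone, 8.33, 8.59 and 8.30 with heat-killed MJ2, and 8.80, 9.32 and 9.35 with surface proteins. The libraries with surface proteins lay above all others, at a log2 fold change of 1.01 over RANKL alone (standard error 0.21, limma adjusted p = 0.017), and 3 of 6 fits that left out a library still passed it. Among the members with known roles, Mrps36 had a log2 fold change of -0.83 (limma adjusted p = 0.070) and Mrps27 of -0.17 (limma adjusted p = 0.61), and neither passed. The 3′ ends of Mrpl19 and Mrpl12 overlap exons of Gcfc2 and Gm16755 on the other strand, and those of Mrps6 and Mrpl51 exons of Gm49711 and Mir3098 on the same strand. Whether reads were counted by strand is not stated, so reads of these pairs may be mixed. Of the 64 mitochondrial members without such an overlap, 16 were lower (25%, all genes 13.2%) and 0 higher (all genes 15.9%).

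**Figure D4:**
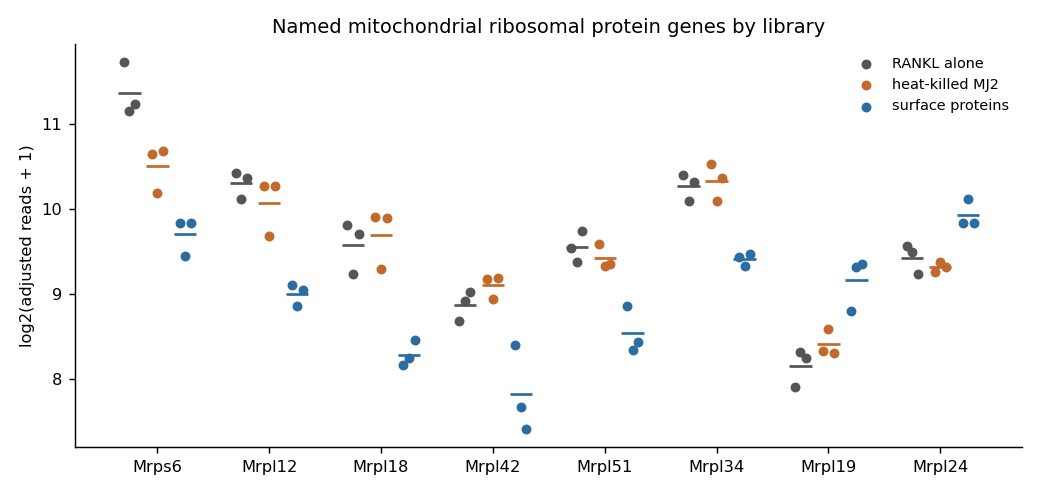
log2(adjusted reads + 1) of 8 mitochondrial ribosomal protein genes in each library. Points are libraries, coloured by group, and short lines are group means. The surface protein libraries lie lowest for the first 6 genes and highest for Mrpl19 and Mrpl24, and the heat-killed MJ2 libraries overlap those with RANKL alone in each gene shown except Mrps6.

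With heat-killed MJ2, 0 of 77 mitochondrial members passed limma's test (all genes 1.84% lower and 4.04% higher), 3 had an unadjusted p under 0.05 (1 with higher and 2 with lower values, all genes 12.0% and 10.6%), and with the spread modelled by level 1 was lower (1.30%, all genes 5.69%). The median log2 fold change was -0.02 (all genes 0.00), 40 members were below 0 and 37 above, and the groups lay apart for 7 with lower values (9.09%, all genes 14.7%) and 6 with higher ones (7.79%, all genes 15.4%). After Mrps6, the lowest were Mrps24 at -0.42 (95% interval -0.84 to 0.00) and Mrpl36 at -0.32 (95% interval -0.64 to 0.00). The highest were Mrpl55 at 0.49 (95% interval -0.21 to 1.19), Mrpl22 at 0.44 (95% interval 0.00 to 0.89) and Mrpl35 at 0.43 (95% interval 0.07 to 0.79). The median half-width of the 95% interval was 0.40, so a difference of that size in a single member could be missed.

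Set against heat-killed MJ2, surface proteins gave 13 lower mitochondrial members (16.9%, all genes 8.65%) and 2 higher ones (2.60%, all genes 9.21%), with a median log2 fold change of -0.30 (all genes 0.03). The groups lay apart for 33 with lower values (42.9%, all genes 20.1%) and 4 with higher ones (5.19%, all genes 22.2%). At 2-fold or more, 3 were lower (all genes 4.97%): Mrpl18 at -1.42 (standard error 0.21, limma adjusted p = 0.014), Mrpl42 at -1.28 (standard error 0.27, limma adjusted p = 0.028) and Mrpl12 at -1.08 (standard error 0.20, limma adjusted p = 0.022). Mrpl34 followed at -0.92, with log2 values of 10.53, 10.09 and 10.37 with heat-killed MJ2 and 9.43, 9.33 and 9.47 with surface proteins, and Mrpl51 at -0.88. Mrpl19 was higher by 0.75 (limma adjusted p = 0.048) and Mrpl24, with 9.26, 9.37 and 9.31 against 9.83, 10.12 and 9.84, by 0.61 (limma adjusted p = 0.033). Fewer members, and fewer of all genes, passed when a library was left out, except that the share of all genes that were higher was 9.32% without heat-killed MJ2 replicate 2. Without heat-killed MJ2 replicate 1 or 3, 0 members passed, without surface protein replicate 2 or 3 1 and 2, and without heat-killed MJ2 replicate 2 or surface protein replicate 1 10 and 9. The share of all genes that were lower was 1.47% and 1.66% without heat-killed MJ2 replicate 1 or 3, 3.90% and 4.26% without surface protein replicate 2 or 3, and 7.24% and 7.76% in the remaining fits. The median stayed between -0.38 and -0.26 under all settings tried.

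**Figure D5:**
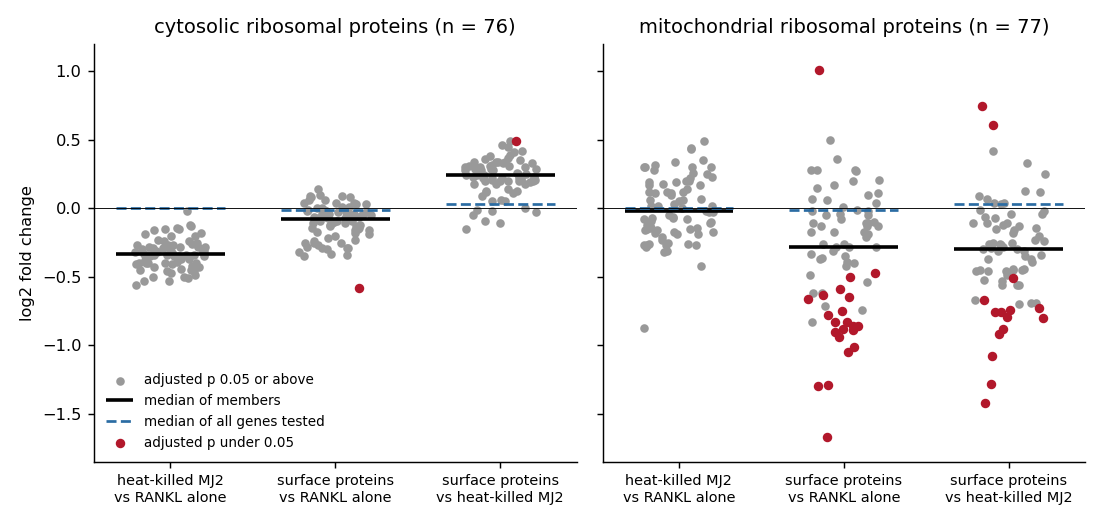
log2 fold changes of the 76 cytosolic (left) and 77 mitochondrial (right) members in the 3 comparisons. Each point is a gene, red where limma's adjusted p was under 0.05, with black lines for the median of the members and dashed blue lines for the median of all genes tested. The cytosolic cloud for heat-killed MJ2 lies wholly below 0 (median -0.33), and the mitochondrial cloud for surface proteins stretches down to -1.67.

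The counts of the following lists stand beside these shares of all genes tested: 13.2% lower and 15.9% higher with surface proteins against RANKL alone, 1.84% and 4.04% with heat-killed MJ2, and 8.65% and 9.21% between the treatments. Some ribosomal genes have symbols that the rule leaves out. Of 10 tested genes for cytosolic ribosomal proteins, paralogues and ribosome-bound proteins, 1 was lower with heat-killed MJ2 (Rpl22l1, a paralogue of Rpl22, at -0.79, limma adjusted p = 0.034) and their median log2 fold change was -0.34, while with surface proteins 0 passed and the median was -0.17. Between the treatments 0 passed and the median was 0.18. Of 6 mitochondrial ones, Ptcd3 was lower with surface proteins against RANKL alone (-0.73, limma adjusted p = 0.026), Gadd45gip1 was lower with surface proteins against heat-killed MJ2 (-0.83, limma adjusted p = 0.027), and 0 passed with heat-killed MJ2 against RANKL alone. The medians were -0.05, -0.34 and 0.22 in the same order.

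Ribosome biogenesis genes make and modify ribosomal RNA and assemble the subunits. Of 49 tested, 10 were lower (20.4%, all genes 13.2%) and 0 higher with surface proteins against RANKL alone, with a median log2 fold change of -0.36. With heat-killed MJ2 1 was higher (2.04%, all genes 4.04%) and 0 lower, with a median of 0.12. Between the treatments 15 were lower (30.6%, all genes 8.65%) and 0 higher, with a median of -0.44. Nop10 and Dkc1, which belong to the complex that modifies uridines of ribosomal RNA, fell with surface proteins by 1.25 and 0.95 on the log2 scale. Nop56, of the methylating complex, fell by 0.80. The gene that was higher with heat-killed MJ2 was Noc3l, at 0.66.

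Translation factors, many of which share the pyrimidine tract with the cytosolic members, had a median log2 fold change of -0.27 with heat-killed MJ2, with 1 of 25 lower (Eif3f at -0.65, limma adjusted p = 0.033) and 0 higher. With surface proteins 3 were lower (Eif4b, Eif5a and Eif3l; 12.0%, all genes 13.2%), 1 was higher (4.00%, all genes 15.9%) and the median was -0.12, so neither share was above that of all genes. The higher one was Eif4ebp1, the inhibitor of cap-dependent translation that mTOR restrains, at 1.12 (limma adjusted p = 0.015). Against heat-killed MJ2, Eif5a was lower, Eif3e was higher and the median was -0.07. Among 23 regulators known to act on ribosomal genes or their mRNAs, Deptor, an mTOR inhibitor, was lower in both treatments (-0.96 and -1.62), Ppargc1b, a coactivator of mitochondrial genes, was lower with surface proteins (-1.55) and Sesn2, which restrains mTOR signalling, was higher (2.27). With surface proteins 1 regulator was higher and 2 lower, with heat-killed MJ2 0 and 1, and between the treatments 1 and 1, with medians of 0.06, -0.09 and 0.11.

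Genes for other mitochondrial functions were counted beside the mitochondrial ribosome. Of 35 translation and assembly factors, 3 were lower with surface proteins (Mto1, the elongation factor Tufm and Vars2; 8.57%, all genes 13.2%; median -0.19), 0 passed with heat-killed MJ2 (median -0.08), and 1 was lower between the treatments (Gfm1, at -0.71; median -0.15). Of 79 nuclear-encoded subunits of the respiratory chain and ATP synthase, 39 were lower (49.4%, all genes 13.2%) and 2 higher with surface proteins (median -0.52), 0 were lower and 1 higher with heat-killed MJ2 (median -0.14), and 13 were lower (16.5%, all genes 8.65%) and 2 higher between the treatments (median -0.39). The higher ones were Uqcrq with surface proteins against RANKL alone (0.66), Cox7a2l between the treatments (0.52), and in all 3 comparisons Cox6a2, an isoform best known from muscle, whose group means were 1.47 with RANKL alone, 6.05 with heat-killed MJ2 and 9.44 with surface proteins on the log2 scale. Uqcrq and Cox7a2l were named after their values were seen. Examples of lower genes are Uqcrh, which fell by 1.37 on the log2 scale with surface proteins, and Atp5g3, which fell by 1.11. Genes of the mitochondrial genome could not be counted, since 0 rows carried a symbol of the form mt-.

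Cell division, osteoclast and macrophage genes were counted in the same comparisons. All 18 proliferation genes were lower with surface proteins (median log2 fold change -2.18 against RANKL alone and -2.29 against heat-killed MJ2), and 0 passed with heat-killed MJ2 (median 0.14). Their summed adjusted reads were 9960 to 12828 with RANKL alone, 9685 to 13865 with heat-killed MJ2 and 1916 to 4313 with surface proteins. Of 11 osteoclast markers, 8 were lower (72.7%, all genes 13.2%) and 0 higher with surface proteins, 3 were lower (27.3%, all genes 1.84%) and 0 higher with heat-killed MJ2, and 8 were lower (72.7%, all genes 8.65%) and 0 higher between the treatments, with sums of 21815 to 34444, 14777 to 16855 and 5976 to 8614. Of 9 macrophage markers, 6 were higher (66.7%, all genes 15.9%) and 1 lower with surface proteins, 4 were higher (44.4%, all genes 4.04%) and 0 lower with heat-killed MJ2, and 3 were higher (33.3%, all genes 9.21%) and 2 lower between the treatments, with sums of 19148 to 20494, 25169 to 26291 and 21325 to 22702. The part of these genes in the differences of the 2 ribosomes was not tested.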

How the data were processed

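RNA from 9 libraries of RAW264.7 cells was turned into QuantSeq libraries by the authors and read over 75 bases in 1 direction. The submitters' processing notes name Bowtie2, bedtools and the build mm10, and versions, the annotation and the handling of reads that match several places are not given in the sources used here. The authors deposited 1 log2 value per gene row, log2(value + 1) after a normalization between samples that the methods call quantile normalization, with 3 decimals. Reads from PCR are not independent molecules, and the number of reads limits the precision of low genes.

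Groups and replicate numbers came from the sample titles. The deposited log2 values were fitted with limma 3.58.1 (lmFit and eBayes) in R 4.3.3, each comparison on its own 6 libraries, for genes that reached 10 adjusted reads in 3 or more of the 6. The code was tested on simulated data. Members, gene lists and tests were chosen with earlier results of these data known. Named were, per ribosome and comparison, up to 5 passing members in each direction by size (the 3 highest and 3 lowest where fewer than 3 passed), the 3 highest and lowest levels, members with known roles, and up to 4 passing genes per list. The text of the list results names a selection of the last. Within groups, no library was a copy of another. In a pair of the same group, 11 to 18 rows above 0 had the same value to all 3 decimals. Chi-square per degree of freedom was 6.90 to 18.5 over rows where such a pair held 100 adjusted reads or more. Positions and transcript ends came from GENCODE M21 (GRCm38), promoters from RefSeq on GRCm38.p6. Scripts ran in Python 3.11.15 with numpy 2.4.6 and pandas 2.3.3, plots in matplotlib 3.10.9.

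Alternatives were other scalings (quantile normalization, equal totals with and without Rn45s), stricter and no filters, a constant of 10 before the log, all 9 libraries in 1 fit, a replicate block, a spread modelled by level, an unadjusted threshold and leaving out each library. Counting only members whose 3′ end is unshared was added after the data were seen.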

Additional observations from a re-analysis of the deposited data

How the results depend on the processing

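With 3 libraries against 3, the median 95% interval of a member reached 0.31 to 0.43 to either side on the log2 scale. Of 2070 values of named members under the alternatives, 1930 kept their side of the threshold, 75 lost it, 65 gained it and 0 changed sign as a called value. The main fits did not take the replicate numbers to pair the libraries, since in no comparison did all 3 same-numbered pairs correlate above 0.1. In their deviations from the group means, same-numbered libraries correlated at 0.0258 to 0.128, all above 0. Differently numbered ones correlated at -0.104 to 0.0601, most of them below 0. Whether libraries of the same number share a batch was not tested, and results with a replicate block are given next.

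With the replicate block, 13 mitochondrial members passed for surface proteins against RANKL alone (1 higher and 12 lower) and 7 against heat-killed MJ2, and 0 cytosolic members passed in either, where 1 had. The cytosolic members called for surface proteins against RANKL alone were all lower, and so are the shares of all genes beside them. They were 2 with no filter (2.63%, all genes 7.52%) and 3 with all 9 libraries (3.95%, all genes 16.4%). With an unadjusted p they were 3, beside 2189 of 10874 genes tested. They were 7 with the spread modelled by level (9.21%, all genes 17.5%) and 0 to 1 with a library left out (all genes 7.60% to 11.9%). For heat-killed MJ2 against RANKL alone they were again all lower, and so are the shares of all genes. They were 3 with no filter (3.95%, all genes 0.748%) and 1 with a constant of 10 (1.32%, all genes 2.60%). All 9 libraries gave 7 (9.21%, all genes 2.66%) and the spread modelled by level 45 (59.2%, all genes 5.69%). An unadjusted p gave 40 (all genes 10.6%), and leaving out a library gave 0 (all genes 0.17% to 0.646%). Between the treatments they were all higher, and so are the shares of all genes. They were 0 with equal totals with or without Rn45s (all genes 7.70% and 8.02%) and 0 over members with unshared 3′ ends (all genes 9.21%). A stricter filter or a constant of 10 gave 2 (2.63%, all genes 11.4% and 11.0%). All 9 libraries gave 5 (6.58%, all genes 10.3%) and the spread modelled by level 27 (35.5%, all genes 14.8%). An unadjusted p gave 17 (all genes 18.6%), and leaving out a library gave 0 (all genes 2.01% to 9.32%).

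The mitochondrial count was 11 to 19 with a library left out for surface proteins against RANKL alone. In these fits 13.0% to 23.4% of members were lower (all genes 7.60% to 11.9%) and at most 1.30% higher (all genes 9.10% to 13.9%). For heat-killed MJ2 against RANKL alone 1 was lower with all 9 libraries (1.30%, all genes 2.66%) or the spread modelled by level (1.30%, all genes 5.69%). With an unadjusted p 2 were lower (all genes 10.6%) and 1 higher (all genes 12.0%). Between the treatments it was 7 with no filter, 25 with the spread modelled by level, 30 with an unadjusted p and 0 to 10 with a library left out. At 2-fold it was 3 to 7 and 0 to 4 with a library left out. The mitochondrial median for surface proteins against RANKL alone was -0.32, -0.33 and -0.31 under quantile normalization, equal totals and equal totals without Rn45s, and -0.28 to -0.24 with a library left out. Against heat-killed MJ2 it was -0.38 and -0.36 under equal totals with and without Rn45s. For heat-killed MJ2 against RANKL alone it was -0.07 to 0.04 with a library left out. The cytosolic median between the treatments was 0.17, 0.16 and 0.18 under the 3 scalings. With Rn45s left out of the total, the cytosolic shares were 8.47%, 6.83% and 7.81% and the mitochondrial ones 0.683%, 0.667% and 0.495% for RANKL alone, heat-killed MJ2 and surface proteins. The scalings moved the median of all genes by less than 0.1. The cause of these changes was not tested, except that fits with a library left out hold fewer samples.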

Other observations

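In 3 libraries (RANKL alone replicate 2, heat-killed MJ2 replicate 1 and surface proteins replicate 3) 15503 rows had a value above 0, and in the other 6 between 12407 and 13207 rows did. No member under the symbol rule was near 0 in any library, the lowest single log2 value of a member being 4.58 for Mrpl21. Among the cytosolic ribosomal genes that the rule leaves out, Rpl39l was at 0 in every library.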
